A study of Mus musculus with 6 samples.

Results

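The genes described here are 34 mouse genes of glutathione metabolism and antioxidant defence. They were chosen by symbol, as a list of the regulators, enzymes and transporters of this system, and make up 34 of the 24982 genes listed for each library. These genes and the other lists below were chosen with earlier results of these data known. Gene expression was compared between a pair of murine keratinocyte lines from neonatal C57BL/6 skin, with 3 RNA-seq libraries of each and no treatment. The KSFM-Ca2+ cells were derived and kept in a keratinocyte serum-free medium with very little calcium. The DKSFM cells descend from KSFM-Ca2+ cells that outlived a move to a defined serum-free medium with more calcium, so medium, calcium, line adaptation and selection of survivors cannot be told apart in this comparison. KSFM-Ca2+ lines were tetraploid to hyperdiploid by the study's karyotyping, and chromosome copies were not measured in these libraries. Whether the 3 libraries of a line came from separate cultures is not given in the sources used here, so the p-values measure only the spread between these samples, which may be technical. The names of the files for KSFM-Ca2+ replicate 3 and for all DKSFM replicates carry the word "combined", without an explanation.

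Glutathione is a small thiol that cells make from cysteine, glutamate and glycine, and that peroxidases and transferases use to reduce peroxides and to tag reactive compounds. Thioredoxin and the peroxiredoxins form a parallel thiol system, and both systems are recharged with NADPH, largely from the pentose phosphate pathway. In many cells, keratinocytes included, the transcription factor NRF2 (Nfe2l2) raises the expression of many of these genes when its inhibitor KEAP1 is modified by electrophiles or oxidants.

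Values are normalized coverage, the mean number of reads over each base of a gene, scaled between libraries. Coverage is averaged over bases, so levels are set side by side between genes. How it was derived from the reads is not given, so such comparisons, and sums over genes, are approximate. Total listed coverage was 1601676, 1238411 and 1057750 in the KSFM-Ca2+ libraries and 1174348, 1239438 and 1170675 in the DKSFM libraries. The files are written to 1 decimal, so 0.1 was the smallest listed value above 0. Fold changes are DKSFM over KSFM-Ca2+ on the log2(value + 0.1) scale, which understates the change of genes with low coverage. A gene counts as higher or lower where limma, fitted to 12409 genes, gave an adjusted p below 0.01, and levels are given as mean ± SD (n = 3 libraries).

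Summed over the 34 genes, coverage was 8961, 8820.4 and 9198 in the KSFM-Ca2+ libraries and 11859.5, 11942 and 12073 in the DKSFM libraries, so each DKSFM sum was above each KSFM-Ca2+ sum. The rise of Gsto1 alone equalled 66.3% of the net difference between the mean sums, in which gains of some genes were offset by losses of others. After Gsto1 the largest gain was that of Txn1 (15.5%), and the largest loss that of Gpx1 (−9.06%). Of the 34, 31 were tested, because 3 or more libraries reached a normalized coverage of 0.5. The other 3, Ggt1, Gpx3 and Nqo1, were too low to be tested. Higher in the DKSFM cells were 16 of the 31 (35.5% of all tested genes were), and 9 were lower (37.1% of all tested genes). By at least 2-fold, 8 were higher, namely Gclc, Gss, Vnn1, Gpx2, Gsta4, Gstm1, Gstm5 and Cat, where 13.2% of all tested genes were. Only Slc7a11 was lower by that much, where 10.5% of all tested genes were. Vnn1, Gpx2 and Gstm1 were tested through the DKSFM libraries alone, so they had to differ. The median log2 fold change was 0.21 over the 31 genes and −0.00 over all tested genes. Over the 28 members with at least 0.5 in every library it was 0.10, beside −0.02 over the 11112 genes with such coverage, and 5 of these 28 were higher by at least 2-fold, as were 9.29% of those genes. The libraries of the lines did not overlap in 27 of the 31 genes, and 83.3% of all tested genes were separated in this way.

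**Figure D1:**
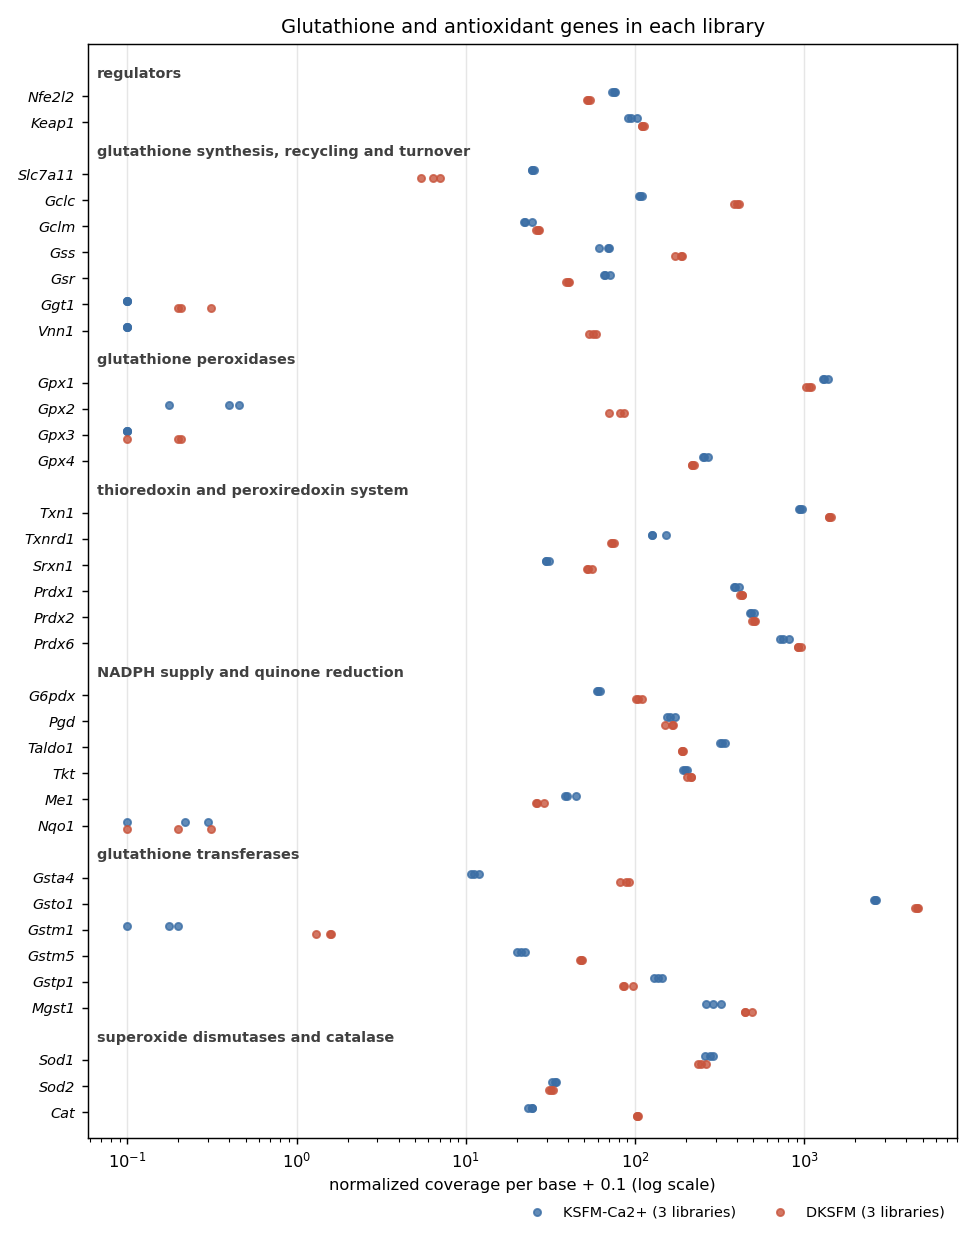
Normalized coverage per base plus 0.1 of each of the 34 genes (horizontal axis, log scale) in the 3 KSFM-Ca2+ (blue) and 3 DKSFM libraries (red), grouped by role. Vnn1 stands at 0 in every KSFM-Ca2+ library, Slc7a11 is lower and Gclc, Gsta4 and Cat are higher in the DKSFM cells, and Gsto1 has the most coverage in both lines.

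Among the regulators, Nfe2l2, the gene of NRF2 itself, had a normalized coverage of 72.9, 75.3 and 75.6 in the KSFM-Ca2+ libraries and 52.3, 53.9 and 52.1 in the DKSFM libraries. All 3 DKSFM values lay below all KSFM-Ca2+ values, and the log2 fold change was −0.50 (SE 0.03, adjusted p = 2.28e-06). Keap1, whose product holds NRF2 in the cytoplasm for degradation, had 103, 94.2 and 90.7 in the KSFM-Ca2+ libraries and 109.7, 109 and 113 in the DKSFM libraries. The lines did not overlap, and the log2 fold change was 0.21 (SE 0.05, adjusted p = 0.00442). The Keap1 call depended on which libraries were used. Leaving out any 1 library other than KSFM-Ca2+ replicate 1 gave an adjusted p of 0.0125 to 0.0203, and a fit without the trend gave 0.0163. The Keap1 log2 fold change kept its call without KSFM-Ca2+ replicate 1 (adjusted p = 0.000644) and with the combined libraries only (adjusted p = 0.00574). The mRNA level of Nfe2l2 is not a measure of NRF2 activity, which is set largely at the protein.

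The promoters were searched for TGACNNNGC, the core of the antioxidant response element to which NRF2 binds, on both strands from 250 bases before to 50 after each RefSeq start (GRCm38.p6). A promoter was found for 29 of the 34 genes, and Gclc, Gsr, Vnn1, Prdx6 and Gsta4 had none in the table. The letters occurred in 12 of the 29 genes (41.4%), beside 1650 of 9759 tested genes (16.9%) and 12 of 85 genes (14.1%) of a wider list of the same pathways. Counted by promoter, 14 of 41 held them (34.1%), beside 1777 of 12468 promoters of tested genes (14.3%) and 12.4% of the 32851 promoters in the whole table. The 12 genes were Nfe2l2, Gclm, Ggt1, Txnrd1, Srxn1, Prdx1, G6pdx, Pgd, Me1, Gstm5, Mgst1 and Sod1. Of these, 5 were higher in the DKSFM cells, 3 were lower, 3 were not called and Ggt1 was not tested. Of all 29 genes with a promoter 12 were higher, 8 lower, 6 not called and 3 not tested. Among the genes changed by at least 2-fold, Gss, Gpx2, Gstm1, Cat and Slc7a11 did not hold these letters in this window. In Prdx1 and Me1 the match also holds TGACTCA, or TGAGTCA on the other strand, the AP-1 motif. A match describes the sequence and does not show a bound site. The stretches of 100 bases below are those whose bases overlapped no annotated exon, and they come from a gene that was higher, a gene that was lower and a gene that was not called. Capitals mark the match, which in all 3 reads TGACNNNGC on the opposite strand.
Gclm, chr3:122245377-122245476, + strand: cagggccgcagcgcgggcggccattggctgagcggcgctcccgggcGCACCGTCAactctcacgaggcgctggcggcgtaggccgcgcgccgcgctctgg
Txnrd1, chr10:82859068-82859167, + strand: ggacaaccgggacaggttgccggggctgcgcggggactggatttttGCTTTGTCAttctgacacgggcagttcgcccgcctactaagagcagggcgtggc
Prdx1, chr4:116685420-116685519, + strand: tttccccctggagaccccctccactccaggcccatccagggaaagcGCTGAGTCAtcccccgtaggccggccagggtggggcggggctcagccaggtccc

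Of the 6 tested genes of glutathione synthesis, recycling and turnover, 4 were higher (35.5% of all tested genes were) and 2 lower (37.1%), and Vnn1 is 1 of the 4 and had to differ. Gclc encodes the catalytic subunit of glutamate-cysteine ligase, the rate-limiting step. Its coverage was 109, 107 and 105 in the KSFM-Ca2+ libraries and 410.3, 382 and 398 in the DKSFM libraries. Every DKSFM value lay far above every KSFM-Ca2+ value, and the log2 fold change was 1.89 (SE 0.03, adjusted p = 2.33e-09). Gclm encodes the modifier subunit of the same ligase and had 24.4, 22.2 and 21.9 against 26.0, 26.6 and 27.0. Its difference was small and without overlap, with a log2 fold change of 0.22 (SE 0.05, adjusted p = 0.00537). Leaving out any 1 library other than KSFM-Ca2+ replicate 1 raised that adjusted p to 0.0109 to 0.0229, and it was 0.013 with replicate number as a block and 0.0132 with the combined libraries only. Gss, glutathione synthetase, had 61.0, 70.0 and 68.8 in the KSFM-Ca2+ and 171, 188 and 187 in the DKSFM libraries. The DKSFM values were again all higher, with a log2 fold change of 1.45 (SE 0.06, adjusted p = 1.49e-07). Gsr, glutathione reductase, which returns oxidized glutathione to its reduced form with NADPH, had 65.1, 66.6 and 70.4 in the KSFM-Ca2+ and 39.1, 40.8 and 39.9 in the DKSFM libraries. It was lower in every DKSFM library, by a log2 fold change of −0.75 (SE 0.04, adjusted p = 6.84e-07).

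Slc7a11, the cystine importer of system xc-, had a coverage of 24.5, 25.1 and 24.4 in the KSFM-Ca2+ libraries and 5.31, 6.89 and 6.25 in the DKSFM libraries. The DKSFM values were all far lower, and the KSFM-Ca2+ mean was 4.01-fold the DKSFM mean (95% confidence interval of the log2 fold change −2.21 to −1.78, adjusted p = 2.81e-07). Slc3a2, its heavy-chain partner and a wider-list gene, had 524 ± 8.15 and 726 ± 14.7, a log2 fold change of 0.47 (adjusted p = 9.2e-07). Slc7a11 is a known target of ATF4 in the integrated stress response. Of 8 other genes of that response, 6 were lower in the DKSFM cells (37.1% of all tested genes were), and Chac1 and Sesn2 were not called. Their summed coverage, led by Atf4, was 2301, 2357 and 2297 in the KSFM-Ca2+ and 1292, 1519.7 and 1305 in the DKSFM libraries. Their part in the Slc7a11 difference was not tested.

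Vnn1 encodes pantetheinase, an ectoenzyme that yields cysteamine. It was listed at 0 in every KSFM-Ca2+ library and had a coverage of 58.8, 53.2 and 56.1 in the DKSFM libraries, so no fold change is given. Ggt1, which cleaves extracellular glutathione, was listed at 0 in the KSFM-Ca2+ cells, beside 0.1, 0.1 and 0.2 in the DKSFM cells, and was not tested. Summed over the 7 genes of synthesis, recycling and turnover, coverage was 289 ± 3.75 in the KSFM-Ca2+ and 708 ± 8.71 in the DKSFM cells, of which Gclc made up 37.1% and 56.0%. In bulk RNA, more cells with a transcript and more RNA per cell cannot be told apart.

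**Figure D2:**
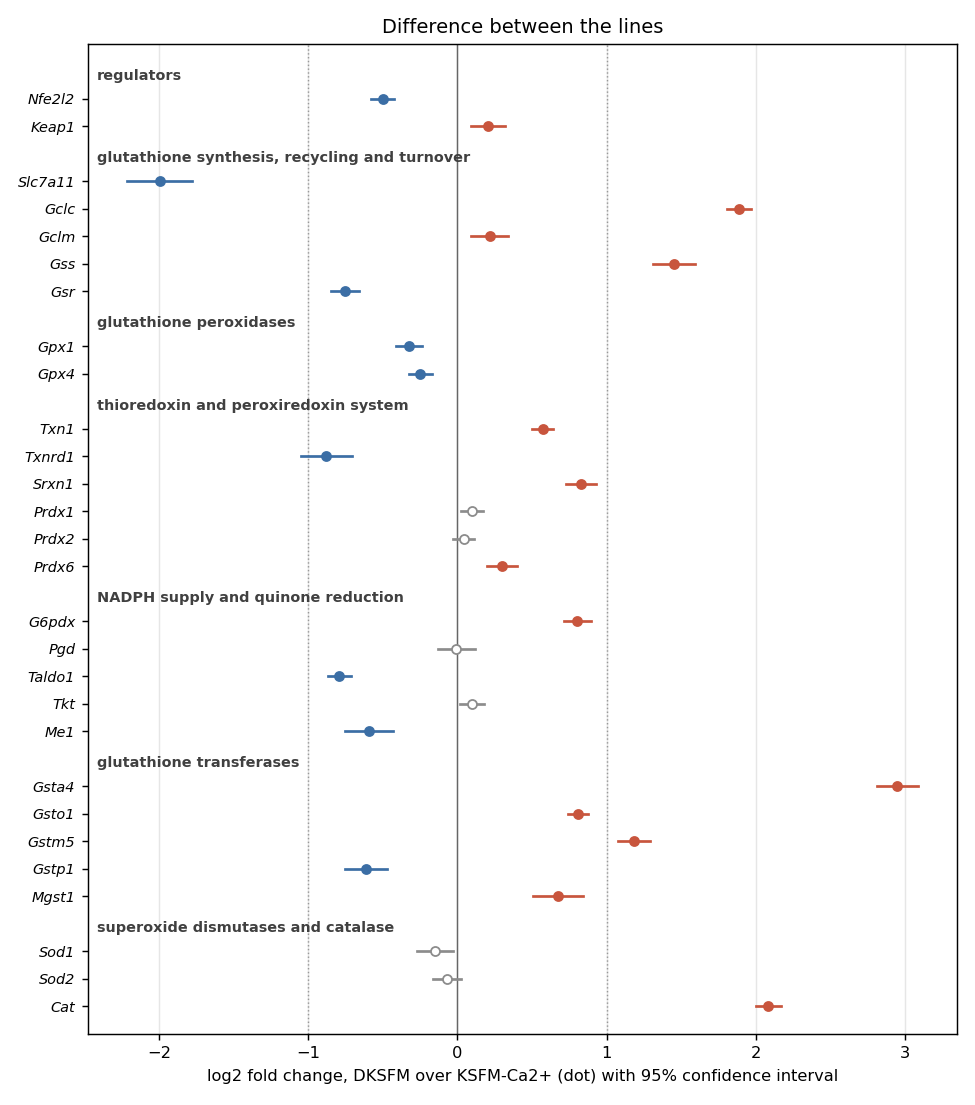
log2 fold change, DKSFM over KSFM-Ca2+, with its 95% confidence interval, for the 28 members with a coverage of at least 0.5 in every library, grouped by role. Filled red dots are higher and filled blue dots lower in the DKSFM cells at an adjusted p under 0.01, open grey dots were not called, and dotted lines mark a 2-fold difference, which Gsta4, Cat, Gclc, Gss and Gstm5 pass upward and Slc7a11 downward.

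The glutathione peroxidases reduce peroxides with glutathione. Gpx1, the main cytosolic form, was the most abundant, with 1313, 1287 and 1382 in the KSFM-Ca2+ and 1021, 1060.2 and 1095 in the DKSFM libraries. It was lower in all 3 DKSFM libraries, by a log2 fold change of −0.33 (SE 0.04, adjusted p = 6.44e-05). Gpx4, which reduces lipid peroxides in membranes, went the same way from 259.6 ± 9.97 to 218 ± 2.78 (log2 fold change −0.25, adjusted p = 0.000171). Gpx2, a form known from epithelia, was listed at 0.1, 0.3 and 0.3 in the KSFM-Ca2+ cells, beside 80.4, 69.9 and 76.2 in the DKSFM cells. It was thus near the rounding step in the KSFM-Ca2+ cells, and no fold change is given. Gpx3, a secreted form, was at 0.1 or less in all 6 libraries and was not tested. The sum of the 4 genes was 1587 ± 58.2 in the KSFM-Ca2+ and 1356 ± 32.6 in the DKSFM cells.

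In the thioredoxin and peroxiredoxin system, 3 of 6 genes were higher, 1 was lower and 2 were not called, beside 35.5% higher and 37.1% lower of all tested genes. Txn1, thioredoxin, had 941, 929.9 and 973 in the KSFM-Ca2+ and 1444, 1389 and 1390.1 in the DKSFM libraries. All DKSFM values were above all KSFM-Ca2+ values, with a log2 fold change of 0.57 (SE 0.03, adjusted p = 5.01e-07). Txnrd1, the reductase that recharges it, had 126, 126 and 153 against 75.2, 72.4 and 71.8. It was lower in every DKSFM library, by a log2 fold change of −0.88 (SE 0.07, adjusted p = 8.52e-06). Srxn1, which repairs overoxidized peroxiredoxins, had 29.5, 29.5 and 30.8 against 51.7, 55.6 and 52.4. It was higher in every DKSFM library, with a log2 fold change of 0.83 (SE 0.04, adjusted p = 5.1e-07). Prdx6, a peroxiredoxin that can use glutathione, rose from 756 ± 46.2 to 928 ± 18.8 (log2 fold change 0.30, adjusted p = 0.000306), though with the combined libraries only its adjusted p was 0.0125. Prdx1 had a log2 fold change of 0.10 (adjusted p = 0.021) and Prdx2 of 0.04 (adjusted p = 0.221). Prdx1 was called without KSFM-Ca2+ replicate 3 (adjusted p = 0.00456) and after quantile normalization (adjusted p = 0.00298).

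Of the 5 tested genes of NADPH supply and quinone reduction, 1 was higher and 2 were lower, and Pgd and Tkt were not called. Among all tested genes, 35.5% were higher and 37.1% lower. G6pdx, glucose-6-phosphate dehydrogenase, which opens the pentose phosphate pathway, had 59.0, 61.7 and 59.9 in the KSFM-Ca2+ and 104, 101 and 109.8 in the DKSFM libraries. It was higher in every DKSFM library, with a log2 fold change of 0.80 (SE 0.04, adjusted p = 3.78e-07). Taldo1, transaldolase of the non-oxidative branch, had 326, 318 and 341 against 189.4, 188 and 192. It was lower in every DKSFM library, by a log2 fold change of −0.79 (SE 0.03, adjusted p = 1.31e-07). Me1, the cytosolic malic enzyme, fell from 40.8 ± 3.31 to 27.0 ± 1.64 (log2 fold change −0.59, adjusted p = 6.74e-05). Pgd, the next NADPH-yielding step after G6pdx, overlapped between the lines (162 ± 8.98 and 161 ± 9.20, adjusted p = 0.891). Tkt, transketolase, was not called at 197 ± 5.64 and 210.1 ± 6.53 (adjusted p = 0.0313), though its adjusted p was 0.00993 without DKSFM replicate 2 and 0.0014 after quantile normalization. Nqo1, a quinone reductase widely used as a readout of NRF2, was listed at 0, 0.2 and 0.1 in the KSFM-Ca2+ and at 0.2, 0.1 and 0 in the DKSFM libraries. It was at the rounding step in both lines and was not tested.

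Among the glutathione transferases, which join glutathione to reactive compounds, 5 of 6 genes were higher (35.5% of all tested genes were), among them Gstm1, which had to differ. Gsto1, an omega-class enzyme with dehydroascorbate reductase activity, had the most coverage of all 34 genes in both lines, with 2658, 2585 and 2609.6 in the KSFM-Ca2+ and 4470.3, 4595 and 4683 in the DKSFM libraries. The lines did not overlap, and the log2 fold change was 0.81 (SE 0.03, adjusted p = 6.77e-08). It made up 85.1% and 87.0% of the summed coverage of this group, 3077 ± 33.6 and 5270.3 ± 105.2. Gsta4, which acts on the lipid peroxidation product 4-hydroxynonenal, had 11.8, 10.7 and 11.1 against 87.7, 81.4 and 92.0. Each DKSFM value was several times each KSFM-Ca2+ value, with a log2 fold change of 2.95 (SE 0.06, adjusted p = 3.86e-09). Gstm5 went from 21.1 ± 1.05 to 47.9 ± 0.509 (log2 fold change 1.18, adjusted p = 1.15e-07). Mgst1, a membrane-bound form, went from 291 ± 29.1 to 462 ± 26.8 (log2 fold change 0.67, adjusted p = 4.21e-05). Gstm1 was listed at 0.1, 0.1 and 0 in the KSFM-Ca2+ and at 1.4, 1.2 and 1.4 in the DKSFM libraries, low in both. Gstp1 was the exception, with 136, 129 and 144 against 97.1, 86.1 and 84.7. It was lower in every DKSFM library, by a log2 fold change of −0.61 (SE 0.06, adjusted p = 2.78e-05).

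Catalase (Cat), the peroxisomal enzyme that splits hydrogen peroxide, had 24.6, 24.5 and 23.2 in the KSFM-Ca2+ and 102, 103 and 102 in the DKSFM libraries. The lines lay far apart, with a log2 fold change of 2.08 (SE 0.04, adjusted p = 2.05e-09). The superoxide dismutases, which feed peroxide to it, were not called. Sod1, the cytosolic form, had 274 ± 16.0 and 247 ± 12.6 (log2 fold change −0.15, adjusted p = 0.0283), and Sod2, the mitochondrial form, had 33.3 ± 0.916 and 31.7 ± 0.773 (log2 fold change −0.07, adjusted p = 0.15). The libraries of both overlapped between the lines.

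Some of these levels may include reads of near-identical copies. Over stretches as long as the reads, 85 bases, 44.1% of the Gpx4 transcript sequence in GENCODE M21 also occurred in another gene, such as Gpx4-ps2. The share was 42.0% for Gstp1 (with Gstp2 and Gstp-ps), 15.7% for Me1, 10.2% for Gstm1 and 8.8% for Sod1, and these genes are uncertain to that extent. It was 8.1% for Gpx2, 3.7% for Prdx2 and 2.8% for Prdx1, and under 1% or 0 for the others. Genes on the opposite strand overlapped 15.4% of the exon bases of Gss, 13.9% of Gstm5, 13.6% of G6pdx, 11.5% of Prdx2, 10.9% of Keap1 and 4.7% of Gclm. On the same strand, Gm6061 overlapped 3.9% of those of Gclm. The study's libraries were directional and aligned with a strand setting, which does not separate genes on the same strand. Whether reads of these overlapping genes entered the listed coverage was not tested.

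The members were also set beside their chromosome neighbourhood (GRCm38), since genes of a whole region can move together. Other tested genes within 10 Mb of a tested member had a median log2 fold change of −0.51 around Prdx6 (chr1:161240112-161251210) to 0.46 around Gstm1 (chr3:108012250-108017973). Gclc (chr9:77754535-77794489) and Gsta4 (chr9:78191966-78209349) lie close together, and the genes around them had medians of −0.12 and −0.10. The medians were −0.03 around Slc7a11 (chr3:50364936-50499087), −0.04 around Gss (chr2:155563181-155592810) and 0.03 around Cat (chr2:103453904-103485153). Prdx6 was higher where its neighbours had a negative median. Gstm5 (chr3:107895854-107898685) lay among genes with a median of 0.46, which left 0.72 after subtraction, less than 2-fold. Gsr (chr8:33653238-33698162) was lower among genes with a median of −0.34, which left −0.41. Taldo1 (chr7:141392160-141402976) was lower among genes with a median of −0.31, which left −0.48. Me1 (chr9:86581363-86695914) was lower among genes with a median of −0.35, which left −0.24 after subtraction. Txn1 (chr4:57943373-57956411) was higher among genes with a median of 0.27, which left 0.30. All 31 tested members, called or not, kept the sign of their difference when the local median was subtracted. Prdx1 and Sod2 did so by margins close to 0, and Gclm was left with 0.09. Against the median of the whole chromosome 29 kept the sign, while Gclm (−0.00) and Prdx1 (−0.04) fell just below. Vnn1, Gpx2 and Gstm1 are in both counts and had to differ. The share of all tested genes that keep their sign was not computed, so these counts have no background beside them. By chromosome, the medians ran from −0.43 on chromosome 8 to 0.30 on chromosome 6.

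**Figure D3:**
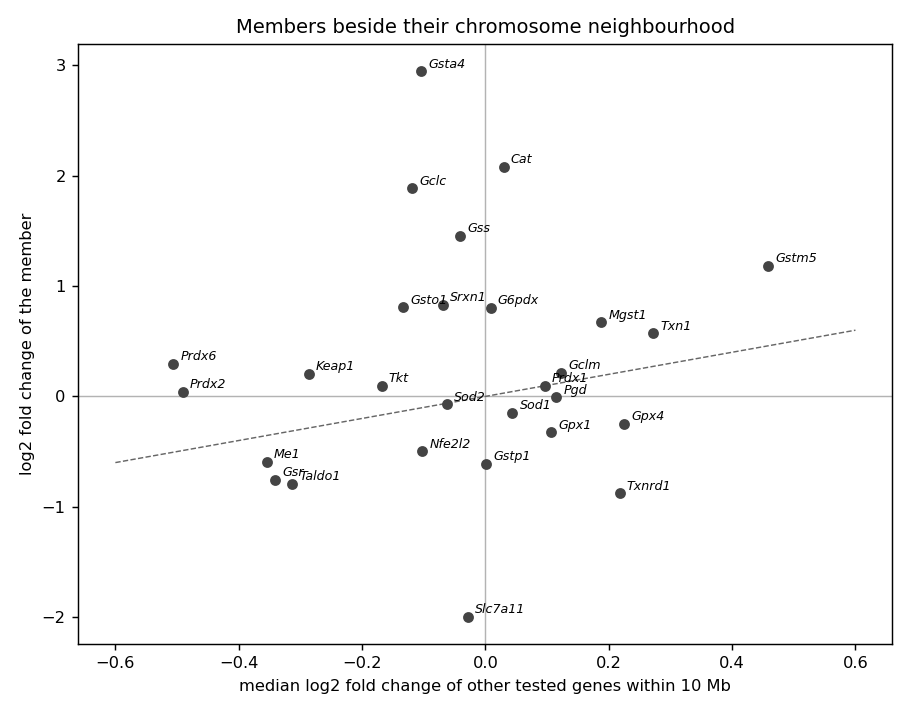
log2 fold change of each of the 28 members with a coverage of at least 0.5 in every library (vertical axis) against the median log2 fold change of the other tested genes within 10 Mb (horizontal axis). The dashed line marks equal values, and Gsta4, Cat, Gclc, Gss and Slc7a11 stand far from it while their local medians lie between −0.12 and 0.03.

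A wider list of 100 other genes of the same pathways gave 81 that were tested. Of these, 34 were higher and 31 lower in the DKSFM cells, 18 and 11 of them by at least 2-fold, and the median log2 fold change was 0.12. As shares these are 42.0% higher and 38.3% lower, close to the 35.5% and 37.1% of all tested genes, and by at least 2-fold 22.2% and 13.6%, beside 13.2% and 10.5%. Of the 81, 13 did not reach a coverage of 0.5 in every library, and 11 of those 13 were among the 29 changed by at least 2-fold. Of these 29, 21 had a mean coverage of 5 or more in whichever line was higher, and the other 8 had less. Of the 21, 12 were higher and 9 lower in the DKSFM cells. Gstm2, Gstm4, Gstt3, Cbs, Slc1a1, Me3 and Cbr3 were tested through the DKSFM libraries alone, so they had to differ. Ggt7 was tested through the KSFM-Ca2+ libraries alone, so it too had to differ. Of the 68 genes that reached 0.5 in every library, 8 were higher (11.8%) and 10 lower (14.7%) by at least 2-fold, beside 9.29% and 8.59% of all genes with such coverage. By role among these 68, at any size, 1 of 6 transferases was higher and 2 lower, and 4 of 8 genes of glutathione supply and turnover were higher and 2 lower. Of the 16 thioredoxins, glutaredoxins and methionine sulfoxide reductases 6 were higher and 7 lower, and of 19 genes around NRF2 7 were higher and 10 lower. Of 10 NADPH sources 2 were higher and 5 lower, of 4 peroxidases and peroxiredoxins 1 and 2, and of 5 superoxide and glyoxalase enzymes 3 and 2. Of all genes with such coverage, 34.6% were higher and 38.6% lower. Aldh3a1, an aldehyde dehydrogenase of epithelia, went from 22.1 ± 1.23 to 420 ± 12.7 (log2 fold change 4.24, adjusted p = 2.31e-10). Txnip, which binds and inhibits thioredoxin, went from 105.2 ± 1.65 to 594 ± 60.6 (log2 fold change 2.49, adjusted p = 1.32e-08). Sesn1, a sestrin, went from 16.2 ± 2.56 to 194 ± 4.99 (log2 fold change 3.59, adjusted p = 2.05e-08).

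Other genes of the wider list also rose by 2-fold or more, as did 13.2% of all tested genes. None of the 4 peroxidases and peroxiredoxins or the 5 superoxide and glyoxalase enzymes tested did. So few genes cannot show a difference from that share. Idh2, the mitochondrial NADP-dependent isocitrate dehydrogenase, had 36.7 ± 1.12 in the KSFM-Ca2+ and 170.0 ± 1.56 in the DKSFM cells, a log2 fold change of 2.21. Txnrd3 had 58.7 ± 1.76 and 163 ± 8.38, a log2 fold change of 1.47. Gstk1 had a log2 fold change of 2.74, Ggt6 of 2.68 and Nfe2l3 of 2.05. Gsta3 was listed at 1.3, 1.4 and 0.2 in the KSFM-Ca2+ and at 100.2, 121.5 and 103.5 in the DKSFM libraries. Cbs, which makes cystathionine on the way to cysteine, was listed at 0.2, 0 and 0.3 against 11.4, 12.7 and 16.4. Gstt3 was listed at 0.4, 0.1 and 0.3 against 9.4, 11.8 and 12.2, and Anpep, an aminopeptidase, at 0.7, 0.4 and 0.3 against 23.5, 25.6 and 25.2. Gstt3, Cbs and Anpep were below 1 in every KSFM-Ca2+ library and Gsta3 in 1 of them. No fold change is given for these 4 genes. Gstt3 and Cbs were tested through the DKSFM libraries alone, so they had to differ.

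A fall of 2-fold or more was seen in 9 genes of the wider list with a mean coverage of 5 or more in whichever line was higher. Nqo2, a quinone reductase related to Nqo1, went from 36.6 ± 1.29 to 4.77 ± 0.788 (log2 fold change −2.93, adjusted p = 8.82e-08). Gsto2 went from 28.0 ± 2.56 to 5.10 ± 1.39 (log2 fold change −2.46, adjusted p = 2.89e-06), while its relative Gsto1 rose. Cth, which releases cysteine from cystathionine, went from 141 ± 1.36 to 48.6 ± 5.44 (log2 fold change −1.54, adjusted p = 3.13e-07). Maff, a small MAF protein that pairs with NRF2, had a log2 fold change of −1.91 (adjusted p = 1.43e-05, and 0.0101 with the combined libraries only), and Akr1b8, an aldo-keto reductase, of −1.55. Msra, Ptges, Blvra and Txnrd2 had log2 fold changes of −1.07, −1.06, −1.05 and −1.01. These lay close to the threshold. The Msra log2 fold change was −0.99 without KSFM-Ca2+ replicate 3, and the Blvra log2 fold change was −0.998 without DKSFM replicate 3. The Txnrd2 log2 fold change was −0.97 without KSFM-Ca2+ replicate 2 and −0.95 without DKSFM replicate 1.

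**Figure D4:**
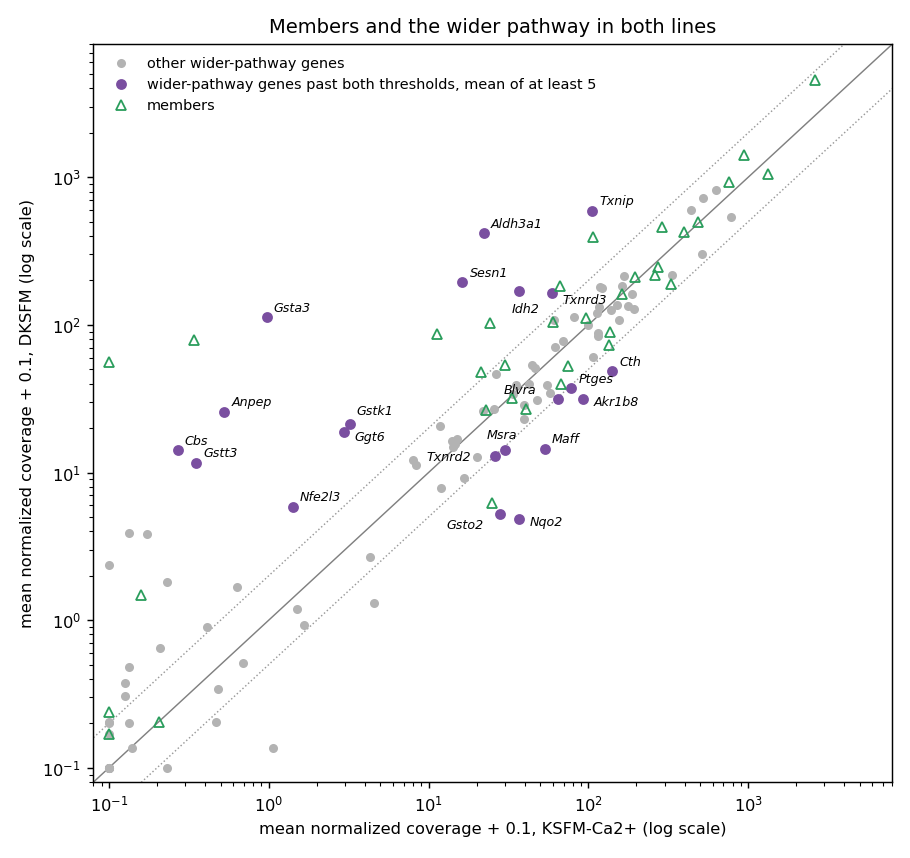
Mean normalized coverage plus 0.1 in the KSFM-Ca2+ (horizontal) and DKSFM cells (vertical), both on log scales, for the 34 members (open triangles) and the 100 genes of the wider list (dots). Purple, named dots are the 21 wider genes past an adjusted p of 0.01 and 2-fold and a mean of 5 or more in whichever line was higher. The solid line marks equal levels and the dotted lines a 2-fold difference.

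Markers of the cells themselves and of other cell types were measured alongside. The 8 keratinocyte genes, led by Krt14, summed to 19314, 19673 and 19380.2 in the KSFM-Ca2+ and 47993, 44351 and 48446 in the DKSFM libraries. Of these 8, 6 were higher and 2 lower, beside 35.5% and 37.1% of all tested genes. All 6 proliferation genes, led by Pcna, were lower in the DKSFM cells, where 37.1% of all tested genes were. Their sums were 986, 1013 and 1015 against 451, 417 and 425. Whether the keratinocyte and proliferation differences have a part in those of the glutathione genes was not tested. The fibroblast list summed to 1.14, 0.890 and 1.30 against 2.34, 2.20 and 2.23, almost all from Pdgfra, with Col1a1, Col1a2, Col3a1, Dcn and Lum at 0 in every library. The endothelial list summed to 2.82, 3.16 and 3.30 against 8.28, 8.29 and 7.42, mostly from Pecam1, with Cdh5 and Emcn at 0. The leukocyte list summed to 1.30, 1.58 and 2.01 against 0, 0.3 and 0, mostly from Cd74, with Cd3e and Tyrobp at 0. The melanocyte list, led by Pmel with Dct and Tyr at 0, stayed under 1 in every library, and the sebocyte list, led by Awat2 with Mc5r and Cidea at 0, under 2.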

How the data were processed

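RNA-seq values of 6 libraries (3 KSFM-Ca2+, 3 DKSFM) were used, grouped by their labels. Per gene, the deposited values are a signal, namely read coverage averaged over bases and written to 1 decimal, with no scaling between libraries. The sources used here do not say how it was derived from the reads. The submitters' processing notes name bcl2fastq, STAR, DESeq2 and mm10. Coverage is not a count, so limma took the place of a count model. Values were scaled with trimmed means of M values without weights (30% of M and 5% of A values trimmed, factors 0.991 to 1.01). Genes reaching 0.5 in 3 or more libraries (in 2 or more after leaving 1 out, and in 1 or more for the combined libraries) were tested with limma's intensity trend on log2(value + 0.1), with no covariate and Benjamini-Hochberg adjustment over 12409 genes. The 34 members and the other lists were chosen with earlier results of these data known. All members are named, and of the wider list the genes past an adjusted p of 0.01 and 2-fold and a mean of 5 or more in whichever line was higher; Slc3a2 and the pairs under other observations were added after their values were seen. RefSeq (GRCm38.p6) gave the promoters and the positions of tested genes (12194 by symbol, 183 by synonym, 32 unmatched). GENCODE M21 gave exons and transcripts. The alternatives were 3 other scalings, pseudocounts of 0.5 and 1, 2 other filters, no trend, treat, a replicate block, an adjusted p of 0.05, each library left out, the 4 libraries marked as combined, a longer motif and whole-chromosome medians. R 4.3.3, limma 3.58.1, Python 3.11.15, pandas 2.3.3, numpy 2.4.6 and matplotlib 3.10.9 were used.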

Additional observations from a re-analysis of the deposited data

How the results depend on the processing

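Under the other scalings, pseudocounts, filters, variance model, tests and sets of libraries, no called member or wider-list gene changed direction. Against whole-chromosome medians, the differences of Gclm and Prdx1 turned negative. Leaving treat aside, 28 tested members were tested under all of these refits. Of these, 22 were called, and 19 were called in every refit, while Gclm, Keap1 and Prdx6 were not in at least 1. Of the 6 that were not called, Prdx1 and Tkt were called in at least 1 refit. With an adjusted p under 0.05 as the threshold, Prdx1, Tkt and Sod1 were called. Vnn1, Gpx2 and Gstm1 went untested where every library had to reach 0.5, and since they had to differ their calls in the other refits say nothing of stability. With treat, which tests against 2-fold, 7 members were higher in place of 8, Gstm5 losing its call (adjusted p = 0.0155), and 1 was lower. Of the wider list 16 were then higher in place of 18 and 7 lower in place of 11. Asking for a coverage of at least 0.5 in every library left 5 members higher by at least 2-fold in place of 8, and 18 genes of the wider list changed by at least 2-fold in place of 29, since genes low in either line then go untested. With the combined libraries only, which leaves a single KSFM-Ca2+ library assumed to vary like the DKSFM libraries, 2 members were lower by at least 2-fold in place of 1, where the Txnrd1 log2 fold change was −1.06. The longer motif, with A as 1 more base at its end, was found in 2 members (6.9%) in place of 12, beside 3.2% of tested genes and 2.4% of the wider list. With 1 library left out at a time, 14 to 16 members were higher and 9 were lower, 8 and 1 of them by at least 2-fold, and 27 to 29 genes of the wider list changed by at least 2-fold. No pairing by replicate number was seen. Correlations of same-numbered deviations were −0.065, 0.0455 and −0.0241, and not every sample correlated best with its own number. These values cannot tell whether same-numbered samples were handled together. With the replicate block, 15 members were higher in place of 16 and 28 genes of the wider list were changed by at least 2-fold in place of 29. The rounding step of 0.1 limits the values of Nqo1, Ggt1, Gpx3 and Gstm1.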

Other observations

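Within several enzyme families the members and wider-list genes went in different directions, and these pairs were picked after their values were seen. Gsto1 was higher and Gsto2 lower in the DKSFM cells, with log2 fold changes of 0.81 and −2.46. Of the thioredoxin reductases, Txnrd3 was higher (1.47), and the cytosolic Txnrd1 and mitochondrial Txnrd2 were lower (−0.88 and −1.01). Of the NRF family, Nfe2l3 was higher (2.05), and Nfe2l1 and Nfe2l2 were lower (−0.54 and −0.50). Of the peroxiredoxins, Prdx5 and Prdx6 were higher (0.46 and 0.30), and Prdx3 and Prdx4 were lower (−0.44 and −0.83). Prdx1 and Prdx2 were not called. Hmox1 and Hmox2, the heme oxygenases, had log2 fold changes of −0.49 and 0.62, though Hmox1 lost its call with the combined libraries only (−0.53). Genes within 10 Mb had a median of −0.25 around Hmox1 and 0.72 around Hmox2. After subtraction of these medians both were negative, at −0.24 for Hmox1 and −0.10 for Hmox2. After subtraction of the whole-chromosome medians Hmox1 was at −0.07 and Hmox2 at 0.375, so the sign of Hmox2 depended on the window. All of these apart from Prdx1 and Prdx2 passed an adjusted p of 0.01 in limma's test over all genes. The difference between the genes of a pair was not tested.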
